A study of Felis catus with 8 samples.

Results

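The SLC25 family is the set of carrier proteins that move metabolites across the inner membrane of mitochondria. It was taken here as every probe set of the array annotated to a single gene whose symbol begins with SLC25A, which gave 434 probe sets of 42 genes, out of 257101 probe sets and 18701 annotated genes. A further 17 probe sets that also name another gene were left out. Probe sets with a mean log2 intensity over the 8 arrays above the median of all probe sets (2.43) were kept, 279 of the 434, and averaged into 1 value per gene. All 42 genes had at least 1 kept probe set. Of the 279, 261 also lay above that median when the diet on which they were brightest was left out, and 265 did so on the 4 arrays without trans fat and HFCS alone. The set was selected on symbols, but SLC25A25, SLC25A21, SLC25A20 and SLC25A1 were singled out in it, chosen by their log2 differences between these diets. Values of these 4 genes are therefore given as a description, with no test. Counts of calls, medians and counts of separated groups are given over the other 38 genes, while the ranges and sizes of role groups describe all members.

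The inner mitochondrial membrane is closed to most solutes, and most SLC25 proteins open it to a narrow class of substrates, usually by exchanging one for another. Fuels, nucleotides, phosphate, amino acids, cofactors and iron all enter or leave by members of this family. In liver, such carriers link mitochondria to fatty acid synthesis through citrate export, to fatty acid oxidation through acylcarnitine import, to the urea cycle through ornithine and aspartate exchange, and to haem synthesis through iron and glycine.

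Human whole-transcript arrays were hybridised with liver RNA of male cats aged 9 months, 2 arrays per diet and 4 diets in all. Standard chow served as control, and the MSG diet added 1.125% monosodium glutamate (MSG) to it. High-fructose corn syrup (HFCS) at 24% and trans fat at 8.6% made up the trans-fat/HFCS diet, to which the combined diet added the same 1.125% of MSG. Dams were on their diet from 3 weeks before mating through nursing, and their sons were weaned onto it. RNA was taken from 4 to 5 livers per diet, and how these relate to the 2 arrays analysed here is not stated. Replicate arrays are labelled biological, with neither litters nor pooling stated, so p-values measure the spread between arrays. In whole liver, fewer cells of a type and less RNA per cell cannot be told apart. Signal from a cat transcript depends on how well it matches the human probes, so values are compared between diets. Levels are not compared between genes, apart from the percentiles of the hepatocyte markers below, which share this limit.

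All 10 hepatocyte markers were measured, with a mean level between the 90.9th and 99.9th percentile of genes, and none passed the test in either main effect or the interaction. Of 12 skeletal muscle markers, the median log2 difference from the control mean was 2.49 and 2.16 on the 2 trans-fat/HFCS arrays, and between -0.03 and 0.13 on the other 6 arrays. Their summed intensity was 815 and 832 on those 2 arrays and 188 to 212 elsewhere. Past the test, 11 of the 12 rose in the trans-fat/HFCS main effect, 9 fell in the MSG main effect and 8 had a negative interaction. Over all genes those shares were 4.44%, 0.285% and 0.0893%. Against control, the MSG diet called none of the 12 (median 0.02). On the combined diet 7 were higher than control and 5 lower (median 0.04), with TNNT3 the highest at 0.75. The 2 trans-fat/HFCS arrays also enter the MSG main effect and the interaction. What part this muscle signal has in the carrier results was not tested. For gene-level calls of the trans-fat/HFCS main effect, the combined diet is also set against the MSG diet. That difference uses neither of those arrays. The erythroid markers, 4 of 6 measured, held no call in the main effects or the interaction, with summed intensities of 55.1 to 79.6. Of the 6 macrophage markers, all measured, CD68 rose with trans fat and HFCS (log2 0.78, SE 0.14, adjusted p = 0.015 in limma). It stood at 2.93 and 3.05 on control, 3.35 and 3.41 on MSG, 4.10 and 4.51 on trans-fat/HFCS and 3.81 and 3.47 on the combined diet, and the combined diet differed from the MSG diet by 0.26 (adjusted p = 0.563). Averaged over the diets with trans fat and HFCS, MARCO, CD14 and C1QA were also higher, while CD163 and CSF1R were lower. CD163 means were 5.95 on control, 5.86 on MSG, 5.68 on trans-fat/HFCS and 5.79 on the combined diet. For CSF1R they were 4.34, 4.45, 4.35 and 4.05 in the same order. The macrophage list had a median of 0.30 and summed intensities of 191 to 255, and its part in the carrier results was not tested.

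Each comparison was a contrast in limma over all 8 arrays, with p-values adjusted by Benjamini-Hochberg over 17910 genes and called under 0.05. The trans-fat/HFCS main effect averages the difference without MSG and the difference with MSG. It called 1372 genes, 7.66% of those tested (4.44% higher and 3.22% lower), and 1 of the 38 other carriers, SLC25A29, which was higher. The MSG main effect averages the difference on chow and that on the trans-fat/HFCS base, and it called 59 genes (0.329%) and 1 of the 38, SLC25A28, which was higher. The interaction, in which the MSG difference on chow is subtracted from that on the trans-fat/HFCS base, called 27 genes (0.151%) and none of the 38 in limma, although 7 had an unadjusted p under 0.05, as had 9.07% of all genes. Because the family was proposed with these comparisons in view, nothing is read from those shares.

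Against control, the MSG diet called 53 genes (0.296%) and 1 of the 38, SLC25A28. The trans-fat/HFCS diet called 444 genes (2.48%) and none of the 38 in limma, with 6 at an unadjusted p under 0.05 beside 18.3% of all genes. The combined diet called 207 genes (1.16%) and 1 of the 38, again SLC25A28. These 3 comparisons share the control arrays.

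Across the 38, the median log2 change was 0.04 with trans fat and HFCS, where the median of all tested genes was 0.02. The median was 0.10 for the MSG main effect, with 24 positive and 14 negative values, beside 0.0035 over all genes. It was -0.16 for the interaction, with 15 positive and 23 negative values, beside -0.0032 over all genes. The median size of a change, whatever its sign, was 0.15 with trans fat and HFCS (0.19 over all genes), 0.15 with MSG (0.12) and 0.31 in the interaction (0.25). The pooled spread within a diet was 0.18 for the median carrier and 0.20 for the median gene. All 4 arrays with MSG lay above the 4 without it for SLC25A2, SLC25A28, SLC25A30 and SLC25A31, 4 of the 38 carriers. Of all genes, 1.09% lay above in this way and 2.68% separated in either direction. With trans fat and HFCS this held for SLC25A29, 1 of the 38, beside 8.29% of all genes above and 15% in either direction.

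**Figure D1:**
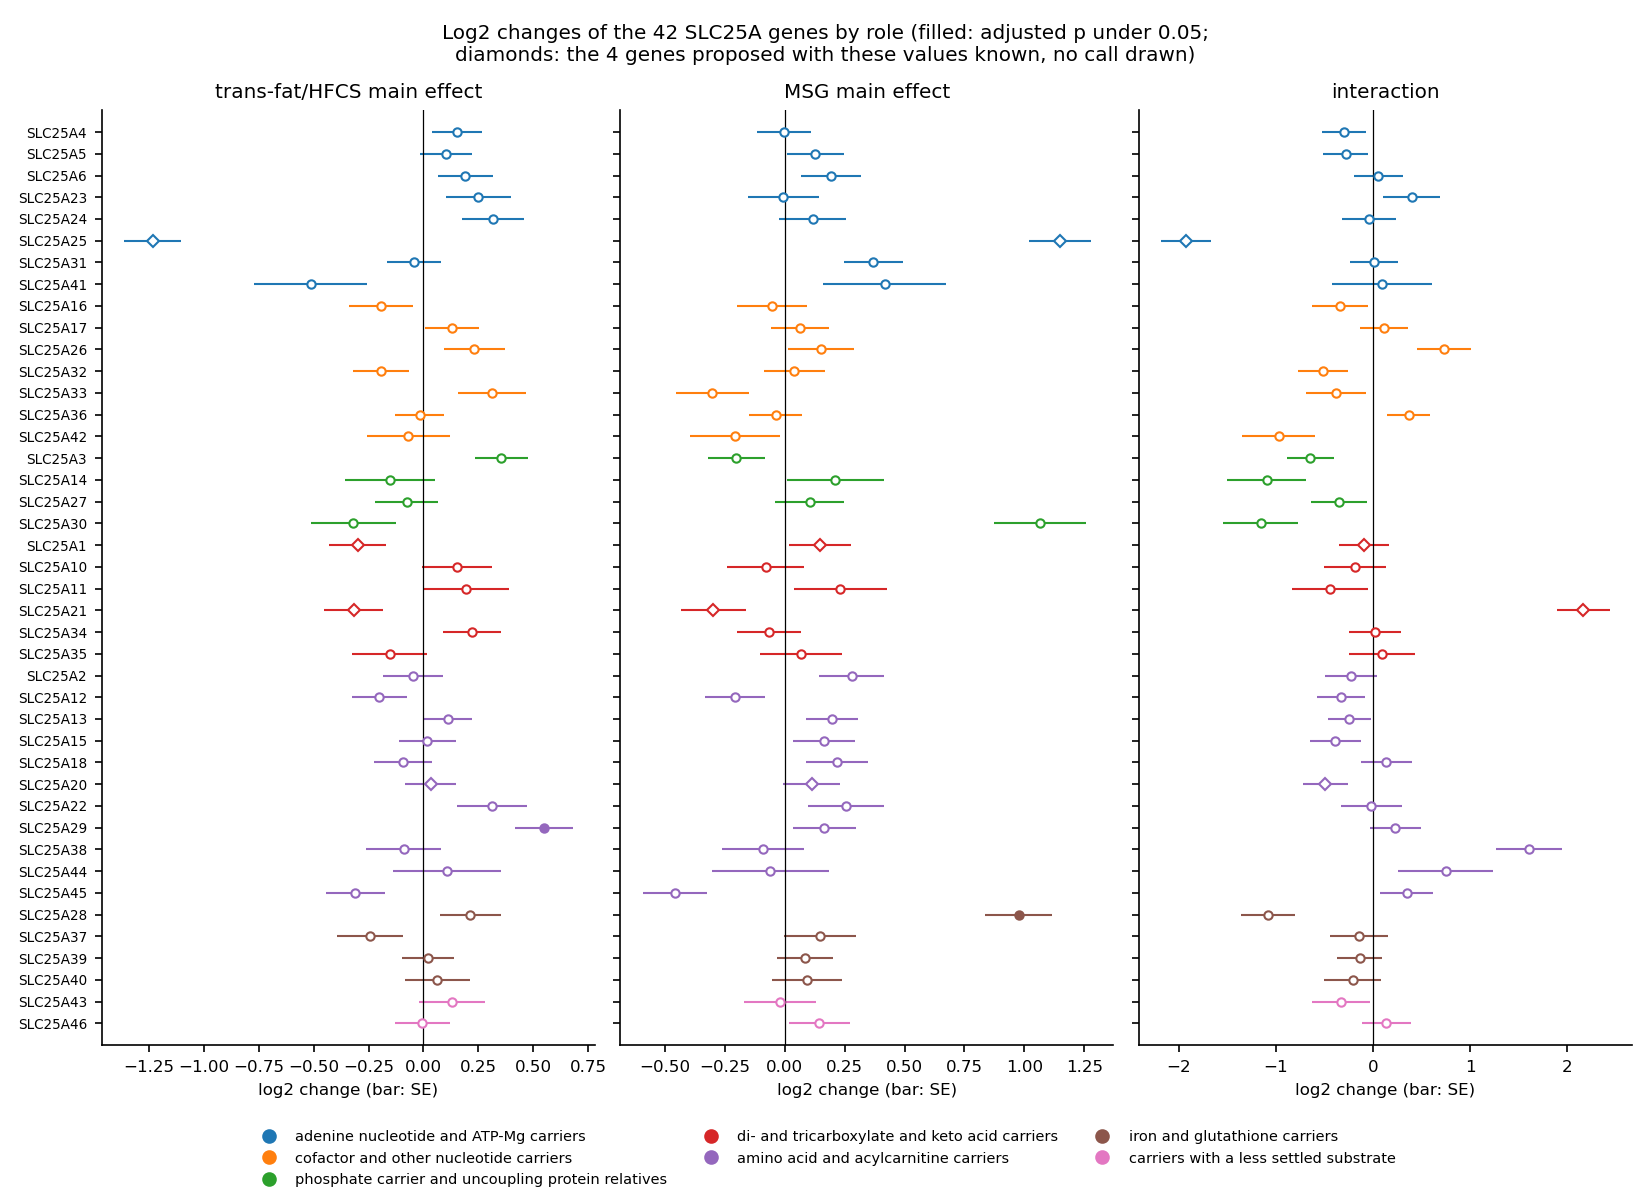
Log2 change (x axis, bars are limma's standard errors) of each of the 42 carriers, coloured by role, for the trans-fat/HFCS main effect, the MSG main effect and the interaction. Filled circles mark SLC25A29 in the first panel and SLC25A28 in the second, and the diamonds are the 4 genes proposed with these values known, of which SLC25A25 and SLC25A21 lie farthest from 0 in the interaction.

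The adenine nucleotide and ATP-Mg carriers numbered 8. SLC25A25 is a calcium-regulated carrier that exchanges ATP-Mg for phosphate and so sets the size of the adenine nucleotide pool in mitochondria. Its log2 values were 4.53 and 4.43 on control arrays, 6.79 and 6.39 on MSG arrays, 4.18 and 4.23 on trans-fat/HFCS arrays and 4.34 and 4.45 on combined-diet arrays. Both MSG arrays were above the other 6, which lay close together. The MSG diet was 4.32-fold above control (log2 2.11, SE 0.18), while the combined diet differed from the trans-fat/HFCS diet by 0.19 and from control by -0.08. The interaction was therefore -1.92 (SE 0.26), and the trans-fat/HFCS main effect of -1.23 (SE 0.13) came from the combined diet standing 2.19 below the MSG diet, since the trans-fat/HFCS diet itself differed from control by -0.27.

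The difference ran through most of the SLC25A25 probe sets. Of 15, 8 were kept, and 7 of these 8 were higher on the MSG diet than on control, 6 of them by over 1 on the log2 scale. Their changes ranged from -0.32 to 4.18 with a median of 2.35. The 7 dim probe sets that were not kept changed by -0.13 to 0.65. A single kept probe set of the 8 was above the filter only through the diet on which it was brightest.

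The other ATP-Mg carriers held no call. SLC25A24, which carries ATP-Mg and phosphate as SLC25A25 does, had an MSG main effect of 0.12, SLC25A23 of -0.01 and SLC25A41 of 0.42, and none passed in limma (adjusted p = 0.905, 0.997 and 0.766). In the cat gene table SLC25A41 lies beside SLC25A23, and it rests on 2 kept probe sets with control values of 3.92 and 2.74, a wide spread. The adenine nucleotide translocases SLC25A4, SLC25A5 and SLC25A6, which trade matrix ATP for cytosolic ADP, had changes of 0.10 to 0.19 with trans fat and HFCS. With MSG theirs were -0.00 to 0.19, and none passed. SLC25A4 stood at 7.62 on both control arrays, 7.77 and 7.75 with MSG, 8.02 and 7.82 on trans-fat/HFCS and 7.78 and 7.75 on the combined diet. As SLC25A4, SLC25A5 and SLC25A6 are close in sequence, human probes may read more than 1 of their cat transcripts.

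SLC25A31, the translocase known from testis in mouse and human, stood at 3.10 and 3.21 on control arrays, 3.56 and 3.49 on MSG arrays, 3.05 and 3.17 on trans-fat/HFCS arrays and 3.32 and 3.65 on combined-diet arrays. All 4 MSG-fed arrays were above the other 4. The MSG main effect was 0.37 (SE 0.12) and did not pass in limma (adjusted p = 0.477), and its brightest probe set alone gave -0.49.

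**Figure D2:**
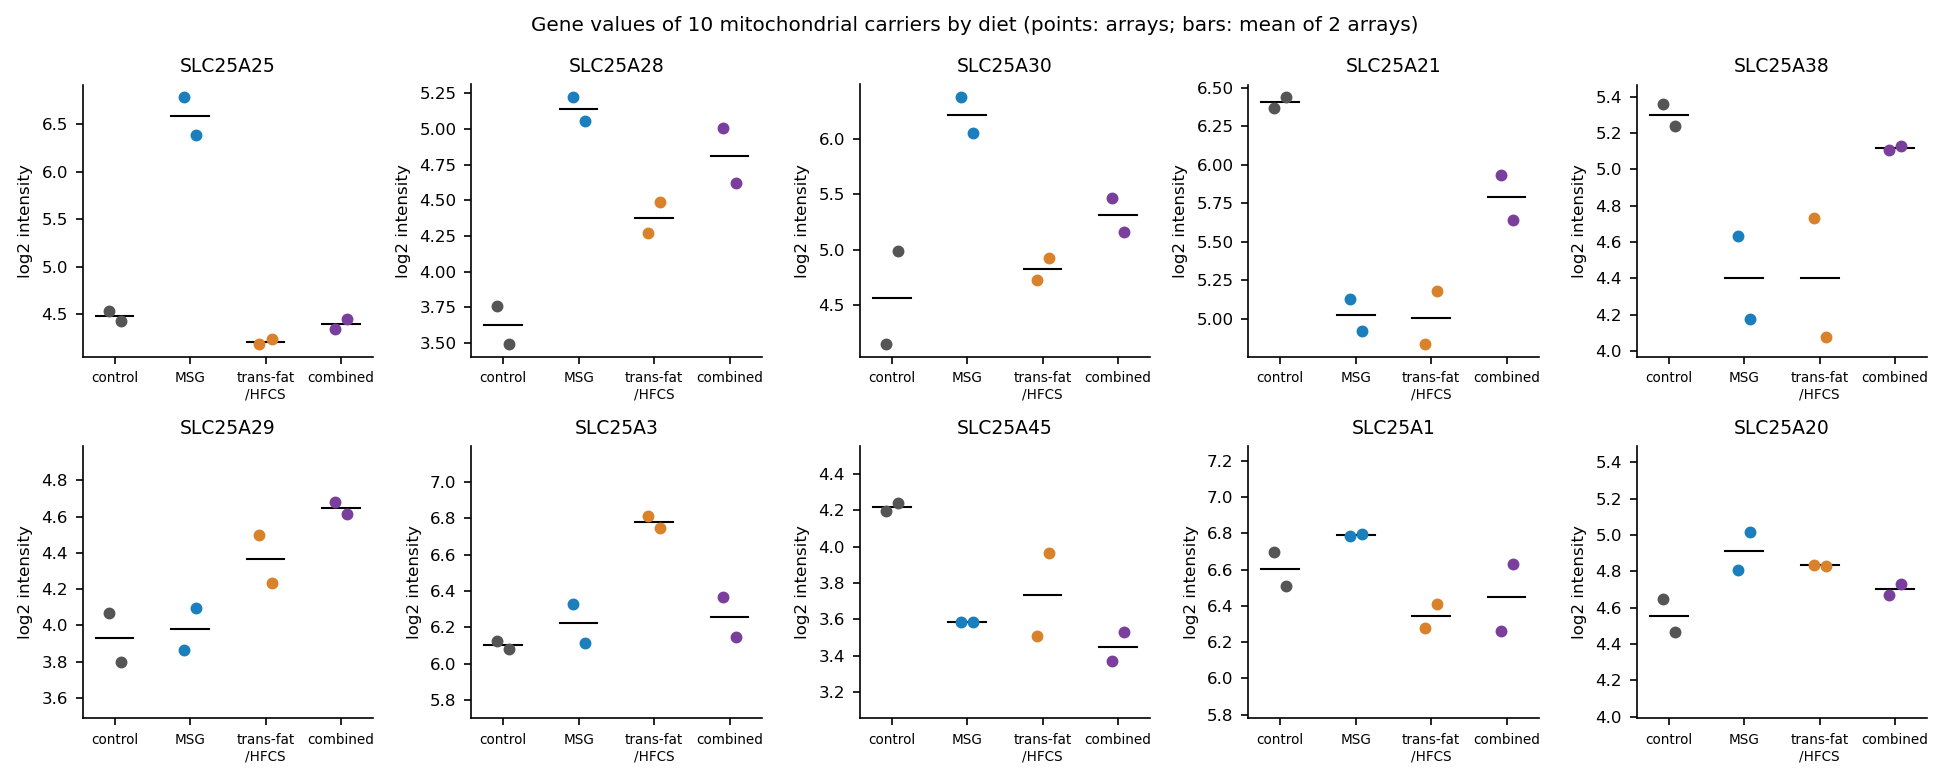
Log2 intensity (y axis) of 10 carriers on each array, by diet, with bars at the mean of the 2 arrays of a diet. SLC25A25 is high on both MSG arrays, at 6.79 and 6.39, and SLC25A21 is high on both control arrays, at 6.37 and 6.44.

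The phosphate carrier and the relatives of the uncoupling proteins numbered 4. SLC25A30, a relative of the uncoupling proteins also called kidney mitochondrial carrier protein, stood at 4.15 and 4.99 on control arrays, 6.37 and 6.05 on MSG arrays, 4.73 and 4.92 on trans-fat/HFCS arrays and 5.46 and 5.16 on combined-diet arrays. Every array with MSG exceeded every array without it, and the control arrays were far apart (SD 0.59). The MSG main effect was 2.09-fold (log2 1.07, SE 0.19), and against control alone it was 3.12-fold (log2 1.64, SE 0.27). Neither passed in limma (adjusted p = 0.0762 and 0.0618), nor did its interaction of -1.15 (SE 0.39, adjusted p = 0.432). The main effect stayed uncalled in 15 of 18 alternatives, and its log2 values ran from 0.63 to 1.72 over all 18. It passed in the other 3. These were no filter on dim probe sets (log2 0.63, adjusted p = 0.0455 in limma), the brightest probe set alone (0.95, adjusted p = 0.0341) and a variance trend (adjusted p = 0.0345). All 6 kept probe sets had a positive MSG main effect, from 0.04 to 2.25. Only 5 of the 6 stayed above the filter when the diet on which they were brightest was left out.

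SLC25A3 brings phosphate into the matrix for ATP synthesis. It stood at 6.13 and 6.08 on control, 6.33 and 6.12 on MSG, 6.82 and 6.75 on trans-fat/HFCS and 6.37 and 6.14 on the combined diet. Only the trans-fat/HFCS arrays were set apart. The skeletal muscle markers were high on the same 2 arrays, and their part in this difference was not tested. The trans-fat/HFCS main effect was 0.35 (SE 0.12, adjusted p = 0.109 in limma) and the trans-fat/HFCS diet stood 0.68 above control (SE 0.17, adjusted p = 0.0753). Without those 2 arrays the difference was 0.03, between the combined and MSG diets. Its brightest probe set gave 0.16 for the main effect, against 0.35 for the mean of 10. Of these 10, only 7 stayed above the filter when the diet on which they were brightest was left out.

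The interaction was negative for all 4 of these genes, from -1.15 to -0.35, and none passed in limma (smallest adjusted p = 0.432). SLC25A14 and SLC25A27, brain-enriched relatives of the uncoupling proteins in mammals, were not called in any of the 6 comparisons. For SLC25A14 the arrays of a diet disagreed, with 2.61 and 3.51 on trans-fat/HFCS arrays and 2.46 and 2.98 on the combined diet.

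Among the 4 iron and glutathione carriers, SLC25A28 was the carrier called most often outside the 4 proposed genes. SLC25A28 is mitoferrin 2, which imports iron for haem and iron-sulphur clusters in cells other than red cell precursors. It stood at 3.76 and 3.49 on control arrays, 5.22 and 5.05 on MSG arrays, 4.27 and 4.49 on trans-fat/HFCS arrays and 5.01 and 4.62 on combined-diet arrays. The arrays with MSG were above those without it, and the control arrays were the lowest of all. SLC25A28 rose 1.97-fold with MSG (log2 0.98, SE 0.14, adjusted p = 0.026 in limma). Against control it rose 2.86-fold on the MSG diet (log2 1.52, SE 0.20, adjusted p = 0.0178) and 2.28-fold on the combined diet (log2 1.19, SE 0.20, adjusted p = 0.0331). On the trans-fat/HFCS diet the difference from control was 0.75 (SE 0.20, adjusted p = 0.087).

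These SLC25A28 values rest on 1 kept probe set of 7. The 6 dim probe sets changed by -0.56 to 0.39 between the MSG diet and control, and with all 7 averaged the differences were 0.06 for the MSG main effect (adjusted p = 0.921 in limma), 0.14 for the MSG diet (adjusted p = 0.854) and -0.049 for the combined diet (adjusted p = 0.871) against control. Its MSG main effect passed without combined-diet array 2, and leaving out any of the other 7 arrays ended the call, with log2 values of 0.88 to 1.07 over the 8. The MSG call against control ended without either control array or either MSG array (log2 1.38 to 1.65), and the combined call ended without any array other than the trans-fat/HFCS arrays and combined-diet array 2 (1.00 to 1.32). In human and mouse SLC25A37 is mitoferrin 1, the iron importer of red cell precursors. It stood at 3.40 and 3.86 on control and 3.82 and 3.87 on MSG, and its MSG main effect of 0.15 did not pass (adjusted p = 0.88 in limma). SLC25A39, which imports glutathione, and its relative SLC25A40 had MSG main effects of 0.08 and 0.09 and did not pass either. All 4 genes of the group had a positive MSG main effect and a negative interaction, and 1 passed, SLC25A28 in the former.

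The di- and tricarboxylate and keto acid carriers numbered 6. SLC25A21 exchanges 2-oxoadipate, an intermediate of lysine and tryptophan breakdown, for 2-oxoglutarate. Its log2 values were 6.37 and 6.44 on control arrays, 5.13 and 4.92 on MSG arrays, 4.83 and 5.18 on trans-fat/HFCS arrays and 5.93 and 5.64 on combined-diet arrays. The control arrays were highest, the combined diet lay between, and the arrays of the other 2 diets overlapped at the bottom. Against control the MSG diet was 2.61-fold lower (log2 -1.38, SE 0.19) and the trans-fat/HFCS diet 2.64-fold lower (log2 -1.40, SE 0.19). The combined diet was 0.62 below control on the log2 scale and 0.76 and 0.78 above the MSG and trans-fat/HFCS diets. The interaction was 2.16 (SE 0.27), and the main effects, which average differences of opposite sign, were -0.32 and -0.30. Without the trans-fat/HFCS arrays the first of these is the combined against the MSG diet, 0.76.

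All 10 kept probe sets of SLC25A21, of 11, were lower than control on the MSG diet, by 0.45 to 2.46 on the log2 scale, and all 10 were lower on the trans-fat/HFCS diet. The interaction was positive in all 10 and over 1 in 9. When the diet on which they were brightest was left out, 9 of the 10 stayed above the filter. As SLC25A21 was chosen by these differences, its probe set counts are a description. SLC25A21 and SLC25A25 differed with MSG on chow in opposite directions, by -1.38 and 2.11. With trans fat and HFCS present, the MSG differences were 0.78 and 0.19. SLC25A21 was low on the trans-fat/HFCS diet without MSG, and SLC25A25 was not high there.

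SLC25A1 exports citrate to the cytosol, where it feeds fatty acid synthesis. It stood at 6.69 and 6.51 on control arrays, 6.79 and 6.80 on MSG arrays, 6.28 and 6.41 on trans-fat/HFCS arrays and 6.26 and 6.63 on combined-diet arrays. The groups with and without trans fat and HFCS overlapped by 1 array, a combined-diet array above a control array. Its main effect with trans fat and HFCS was -0.30 (SE 0.13) and with MSG 0.15 (SE 0.13). The dicarboxylate carrier SLC25A10, the 2-oxoglutarate carrier SLC25A11, and SLC25A34 and SLC25A35, whose substrates are less settled, were not called in any comparison. SLC25A11, part of the malate-aspartate shuttle, had combined-diet values of 5.34 and 4.53, far apart.

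The amino acid and acylcarnitine carriers numbered 11. SLC25A29 carries arginine, lysine and other basic amino acids into mitochondria. It stood at 4.07 and 3.80 on control, 3.87 and 4.10 on MSG, 4.50 and 4.23 on trans-fat/HFCS and 4.68 and 4.61 on the combined diet. The 4 arrays with trans fat and HFCS were all above the other 4, and the combined diet was the highest. SLC25A29 rose 1.46-fold with trans fat and HFCS (log2 0.55, SE 0.13, adjusted p = 0.0377 in limma). Its 2 kept probe sets gave 0.15 and 0.94, leaving out any 1 array ended the call (log2 0.48 to 0.61), and without both trans-fat/HFCS arrays the difference was 0.66 (adjusted p = 0.128).

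SLC25A38 imports glycine for the first step of haem synthesis. Its values were 5.36 and 5.24 on control arrays, 4.63 and 4.17 on MSG arrays, 4.73 and 4.08 on trans-fat/HFCS arrays and 5.10 and 5.13 on combined-diet arrays. As in SLC25A21, the MSG and trans-fat/HFCS arrays were low and the control and combined-diet arrays were high, with no overlap. The interaction was 1.61 (SE 0.34) and did not pass in limma (adjusted p = 0.195). The MSG diet was 0.90 below control (adjusted p = 0.338) and the trans-fat/HFCS diet 0.89 below it (adjusted p = 0.0955). Its 3 kept probe sets of 6 gave interactions of 0.55 to 2.68.

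SLC25A45, a poorly studied relative of the carnitine carrier, stood at 4.20 and 4.24 on control, 3.59 and 3.58 on MSG, 3.51 and 3.96 on trans-fat/HFCS and 3.37 and 3.53 on the combined diet. Both control arrays were above the other 6. Its MSG main effect of -0.46 did not pass in limma (SE 0.13, adjusted p = 0.398), nor did its combined diet against control, at -0.77 (SE 0.19, adjusted p = 0.0981).

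SLC25A20 exchanges acylcarnitines for carnitine and so passes long-chain fatty acids to beta-oxidation. It stood at 4.65 and 4.46 on control arrays, 4.81 and 5.02 on MSG arrays, 4.83 on both trans-fat/HFCS arrays and 4.67 and 4.73 on combined-diet arrays. The control arrays were lowest, and all arrays lay within a narrow range. Its differences from control were 0.36 with MSG, 0.28 with trans fat and HFCS and 0.14 with both, each with an SE of 0.17. The trans-fat/HFCS main effect was 0.03 and its sign turned under several alternatives.

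The ornithine carriers SLC25A15 and SLC25A2, which serve the urea cycle, the aspartate-glutamate carriers SLC25A12 and SLC25A13 of the malate-aspartate shuttle, the glutamate carriers SLC25A18 and SLC25A22, and SLC25A44, which takes up branched-chain amino acids, held no call at the gene level. SLC25A13, the form that predominates in liver, stood at 7.61 and 7.55 on control arrays, 7.88 and 7.92 with MSG, 7.86 and 7.76 on trans-fat/HFCS and 7.92 and 7.86 on the combined diet. Its control arrays were lowest, with main effects of 0.20 (SE 0.11) for MSG and 0.11 (SE 0.11) for trans fat and HFCS, neither past the test (adjusted p = 0.736 and 0.585 in limma). The 2 trans-fat/HFCS arrays disagreed for SLC25A44, at 4.11 and 2.89. Across the 11 genes, changes ran from -0.31 to 0.55 with trans fat and HFCS and from -0.46 to 0.28 with MSG.

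The cofactor and other nucleotide carriers numbered 7 and none was called in any of the 6 comparisons. They are SLC25A16 and SLC25A42, linked to coenzyme A, the peroxisomal carrier SLC25A17, SLC25A26 for S-adenosylmethionine, SLC25A32 for folate or flavin, and the pyrimidine nucleotide carriers SLC25A33 and SLC25A36. Changes ran from -0.19 to 0.31 with trans fat and HFCS, from -0.30 to 0.15 with MSG and from -0.97 to 0.73 in the interaction, with the ends of the last at SLC25A42 and SLC25A26. SLC25A43 and SLC25A46, the latter a protein of the outer membrane that takes part in mitochondrial shape, were not called either, with main effects of -0.02 to 0.14.

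A fit to single probe sets, added after the data were seen, was run on all 111624 kept probe sets with 1 gene. It called 2.45% of them for the trans-fat/HFCS main effect and 2 of the 244 that belong to the 38 carriers, 1 of SLC25A22 and 1 of SLC25A23. In SLC25A22, which carries glutamate into mitochondria with a proton, 1 of 7 kept probe sets stood at 5.63 and 5.60 on control, 5.29 and 5.46 on MSG, 7.29 and 7.32 on trans-fat/HFCS and 6.89 and 6.97 on the combined diet. The 4 arrays with trans fat and HFCS were above the others by more than 1, a 3.07-fold change (log2 1.62, SE 0.17, adjusted p = 0.00911 in limma). The other 6 changed by -0.70 to 0.88, with a median of 0.23.

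In SLC25A23, an ATP-Mg carrier regulated by calcium, 1 of 11 kept probe sets stood at 2.67 and 2.13 on control, 2.08 and 1.80 on MSG, 5.27 and 5.54 on trans-fat/HFCS and 4.95 and 5.05 on the combined diet. Its mean on the 4 arrays without trans fat and HFCS was 2.17, below the filter of 2.43, so it was kept only through the arrays on which it is high and had to differ, and its call supports nothing. The other 10 changed by -1.27 to 0.80, with a median of 0.17, so neither gene as a whole followed its 1 probe set. The SLC25A22 probe set also passed when trans-fat/HFCS was set against control (log2 1.69, adjusted p = 0.0396 in limma), where 0.927% of probe sets were called. In the other 4 comparisons no probe set of the 38 carriers was called in limma, where 0.151% of all probe sets passed for MSG, 0.0618% for the interaction, and 0.12% and 0.0645% for the MSG and combined diets against control. Whether these single probe sets read an exon that changed, a cat sequence difference or another transcript was not tested.

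**Figure D3:**
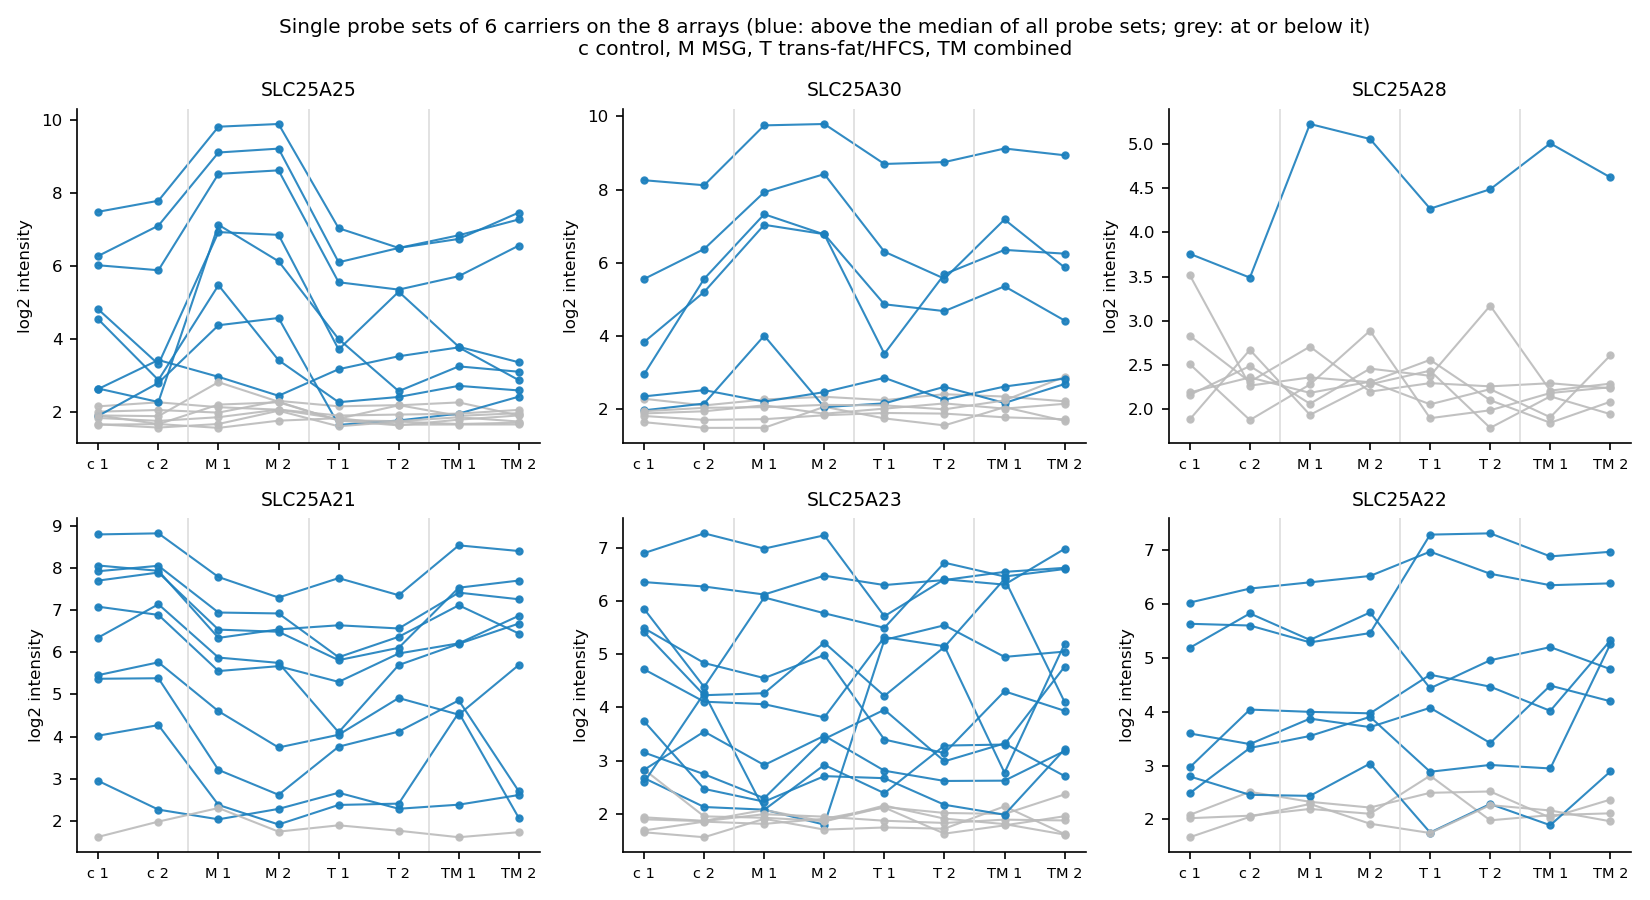
Log2 intensity (y axis) of every probe set of SLC25A25, SLC25A30, SLC25A28, SLC25A21, SLC25A23 and SLC25A22 on the 8 arrays (x axis; c control, M MSG, T trans-fat/HFCS, TM combined), with kept probe sets in blue and dim ones in grey. In SLC25A25 and SLC25A21 most blue lines bend together, while in SLC25A23 and SLC25A22 1 line stands above the rest of its own course on the 4 arrays with trans fat and HFCS.

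Genes that work beside the carriers were taken from 10 lists. They were chosen with earlier results of these data known, so nothing is read from counts of calls within a list. Over all genes, the trans-fat/HFCS main effect called 4.44% higher and 3.22% lower. In the carnitine shuttle, of 8 measured genes CPT1A fell with trans fat and HFCS and none rose. CPT1A makes the long-chain acylcarnitine that SLC25A20 carries, and it stood at 4.55 and 4.78 on control, 5.77 and 5.97 on MSG, 4.55 and 4.66 on trans-fat/HFCS and 4.76 and 4.69 on the combined diet. Only the MSG arrays were set apart, as in SLC25A25. CPT1A rose 2.30-fold on the MSG diet against control (log2 1.20, SE 0.17, adjusted p = 0.0266 in limma). Its trans-fat/HFCS main effect of -0.60 (SE 0.12, adjusted p = 0.0219) went with the combined diet standing 1.14 below the MSG diet, and its interaction of -1.08 did not pass (adjusted p = 0.214).

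Of 8 genes that make, export or use citrate for fatty acid synthesis, 3 fell with trans fat and HFCS and none rose. Of all genes 3.22% fell, and the list was chosen with earlier results known, so the count is a description. The median was -0.37. ACLY, which splits the citrate exported by SLC25A1, stood at 6.80 and 6.78 on control, 6.67 and 6.51 on MSG, 5.78 and 5.41 on trans-fat/HFCS and 5.76 and 6.04 on the combined diet. The 4 arrays with trans fat and HFCS were all lower, a decrease of 1.92-fold (log2 -0.94, SE 0.14, adjusted p = 0.00592 in limma). The malic enzyme ME1 fell by 0.64 (adjusted p = 0.0207) and the fatty acid synthase FASN fell by 0.49 (adjusted p = 0.0459). Between the combined and MSG diets none of the 3 passed, with differences of -0.69 for ACLY, -0.47 for ME1 and -0.20 for FASN (adjusted p = 0.115, 0.226 and 0.616 in limma).

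Among relatives of the family with other symbols and the pyruvate carrier, 1 of 7 measured genes rose with trans fat and HFCS. This was UCP1, the uncoupling protein of brown fat, at 3.18 and 3.17 on control, 3.08 and 3.34 on MSG, 3.85 and 4.38 on trans-fat/HFCS and 4.24 and 3.78 on the combined diet. The groups did not overlap, and the change was 1.82-fold (log2 0.87, SE 0.16, adjusted p = 0.0179 in limma). The combined diet stood 0.80 above the MSG diet, which did not pass (adjusted p = 0.129). UCP3, which is most abundant in muscle, had a change of 0.71 (adjusted p = 0.0512) and was highest on the trans-fat/HFCS arrays, at 4.02 and 4.21. Of 5 measured adipocyte markers, UCP1 among them, 2 rose and 1 fell in this comparison, beside 4.44% and 3.22% of all genes. The 1 that fell was LEP, with means of 5.75 on control, 5.76 on MSG, 5.35 on trans-fat/HFCS and 4.89 on the combined diet.

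Of 9 measured genes of haem and iron-sulphur synthesis, 1 rose with trans fat and HFCS. ALAS1, which joins glycine to succinyl-CoA in the first step of haem synthesis, stood at 7.43 and 7.23 on control, 7.59 and 7.68 on MSG, 8.20 and 8.47 on trans-fat/HFCS and 8.15 and 8.01 on the combined diet. It rose 1.65-fold (log2 0.72, SE 0.12, adjusted p = 0.0125 in limma), and all 4 arrays with trans fat and HFCS were above the other 4. Of 15 subunits of ATP synthase, 1 rose, ATP5I (log2 0.73, SE 0.11, adjusted p = 0.00766), and the median subunit was at -0.15. Between the combined and MSG diets neither passed, at 0.44 for ALAS1 (adjusted p = 0.244 in limma) and 0.46 for ATP5I (adjusted p = 0.184).

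In 5 lists no gene was called in either main effect or the interaction in limma. Their smallest adjusted p in the trans-fat/HFCS main effect was 0.111 for GOT1 among 6 malate-aspartate shuttle enzymes (log2 -0.35), followed by GOT2 (0.30). It was 0.124 for ARG2 among 8 urea cycle enzymes (-0.41), followed by OTC (-0.32), and 0.315 for AADAT among 10 enzymes of lysine and tryptophan breakdown (-0.29), followed by KYNU (-0.19). It was 0.116 for LETM1 among 4 calcium transport genes (0.36), followed by EFHA1 (-0.41), and 0.127 for TFAM among 6 regulators of mitochondrial biogenesis (0.48), followed by NRF1 (-0.13). The counts at an unadjusted p under 0.05 in that comparison were 1, 1, 0, 2 and 1. None of the 10 lists held a call for the MSG main effect or the interaction, and the smallest adjusted p for MSG was that of CPT1A, at 0.0766.

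**Figure D4:**
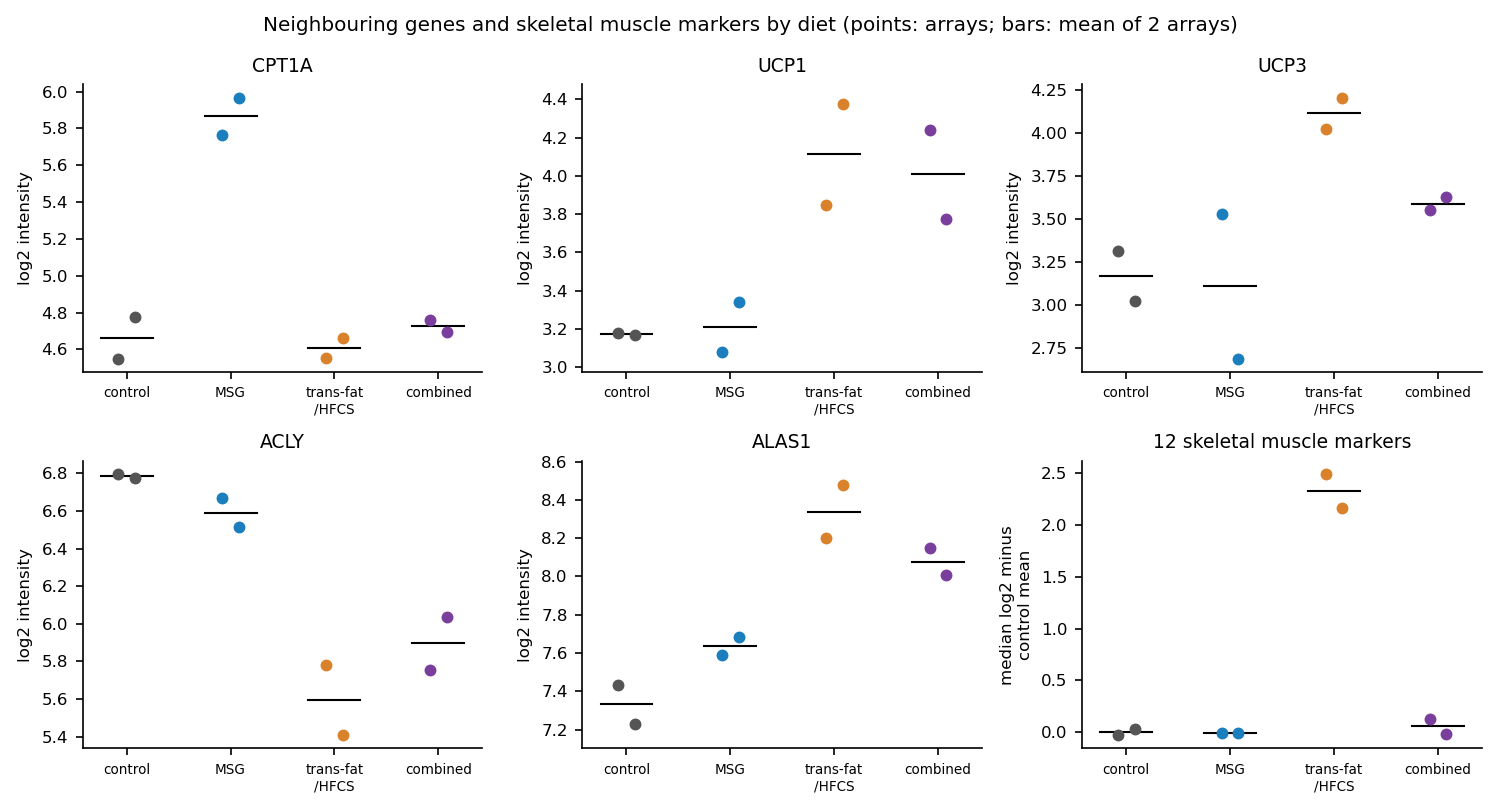
Log2 intensity (y axis) of CPT1A, UCP1, UCP3, ACLY and ALAS1 on each array by diet, and in the last panel the median of 12 skeletal muscle markers minus the control mean. CPT1A is high on both MSG arrays and ACLY is low on the 4 arrays with trans fat and HFCS. The median of the muscle markers is high only on the 2 trans-fat/HFCS arrays, at 2.49 and 2.16.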

How the data were processed

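Each deposited value is a linear intensity of 1 exon-level probe set, normalized by the authors. Per the submitters' processing notes, Partek, GCRMA and the build hg19 are listed, with no version, role or order. Values lay between 2.22 and 22966, medians were 5.25 to 5.28 on the 8 arrays, and log2 was taken here. The number of arrays limits the precision.

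Gene names came from the platform annotation, in which 224320 probe sets carry 1 gene, 10159 more than 1 and 22622 no gene. Of the 42 symbols, 41 were found in a cat gene table (assembly F.catus_Fca126_mat1.0), used for names and neighbours only, and SLC25A44 was not. No sequence or coordinate was used. Carriers rested on a median of 7 kept probe sets, SLC25A28 on 1 and another 5 genes on 2.

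A model of 4 diet groups was fitted in R 4.3.3 by lmFit and eBayes of limma 3.58.1 (4 residual and 5.01 prior degrees of freedom), two-sided. SE is limma's moderated standard error and SD is over 2 arrays. On simulated data for the MSG main effect with 17910 genes, 97% of 100 genes changed 2-fold and 100% of 100 changed 4-fold were called, with 9 false calls. The simulation used independent normal noise of limma's moderated variance and the same shift on all MSG-fed arrays. It therefore checks the code and does not give the power in these data, for the interaction or for single diets against control. The labels give no scan date or batch, so none was tested.

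The members, role groups, marker lists and neighbouring lists were chosen with earlier results of these data known. Effects are given for members called in any of 6 comparisons, for the 4 proposed genes and for the 5 of smallest p in each main effect and the interaction. Others are given by level, range or count, and those further named with an effect were chosen after their values were seen. From each neighbouring list up to 4 called genes are named, or the 2 of smallest p where none was called. Alternatives changed the filter, the summary per gene, the scaling, the variance prior, the arrays used, the replicate block and the interaction term.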

Additional observations from a re-analysis of the deposited data

Results flagged for a closer look

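The MSG difference on the trans-fat/HFCS base differed from that on chow for 2 carriers by the interaction term, SLC25A21 at 2.16 and SLC25A25 at -1.92 on the log2 scale. Both belong to the genes proposed with these values known, so the terms are a description. Arrays moving in opposite directions were searched for only among the carriers of the 21 named effects described below. For 3 further carriers of this set the arrays moved in opposite directions on the 2 base diets with no overlap. In SLC25A38 both MSG arrays were below control and both combined-diet arrays above the trans-fat/HFCS arrays (interaction 1.61). SLC25A20 had the opposite order (-0.487), with the MSG arrays above control and the combined-diet arrays below the trans-fat/HFCS arrays. In SLC25A28 it was the trans-fat/HFCS arrays that lay above control and the combined-diet arrays below the MSG arrays (-1.08). The interaction of SLC25A38 and SLC25A28 did not pass in limma (adjusted p = 0.195 and 0.318), and that of SLC25A20, a proposed gene, was not tested. Outside the searched set, SLC25A4 and SLC25A36 also moved in opposite directions with no overlap. In SLC25A4 the MSG arrays were above control and the combined-diet arrays below the trans-fat/HFCS arrays (-0.30). SLC25A36 had the opposite order (0.37), and neither interaction passed in limma (adjusted p = 0.74 and 0.672).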

How the results depend on the processing

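With 2 arrays per diet, single arrays carry much of each result. Of 358 alternative values of 21 named effects, 265 kept direction and side of the threshold, 80 lost the call, 4 gained one and 9 turned sign. The 21 include effects of the 4 proposed genes, chosen by these values, so nothing is read from this tally. Over the 38 carriers outside the 4 proposed genes, the count of calls was 0 to 2 for trans fat and HFCS across alternatives (1 in the main setting), 0 to 2 for MSG (1), 0 in every alternative run for the interaction (0), and 0 to 2, 0 to 2 and 0 to 1 for the MSG (1), trans-fat/HFCS (0) and combined (1) diets against control. The counts that follow are over all 42. They include the 4 proposed genes, to which both interaction calls and the trans-fat/HFCS call against control belong, so nothing is read from them. With the median of the kept probe sets the counts were 1 for trans fat and HFCS (2 in the main setting), 0 for MSG (2), 0 for the interaction (2), and 0 for the MSG (3), trans-fat/HFCS (1) and combined (1) diets against control. The 75th percentile filter gave 1 for MSG and 1 for the interaction, and the brightest probe set gave 1 and 0. Without the interaction term the count was 1 for trans fat and HFCS and 0 for MSG, and without both trans-fat/HFCS arrays it was 1 for trans fat and HFCS. No filter and a variance trend each gave 2 when the trans-fat/HFCS diet was set against control. The fit per probe set, chosen after seeing the data, gave 3 genes there, and 0 for MSG, the interaction, and the MSG and combined diets against control. Leaving out 1 array gave 1 for trans fat and HFCS each time, 0 to 2 for MSG, 0 to 1 for the interaction, 1 to 3 for the MSG diet, and 0 to 1 for each of the trans-fat/HFCS and combined diets against control. Calls over all genes ranged from 233 to 2182 for trans fat and HFCS, 1 to 106 for MSG and 5 to 56 for the interaction.

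With the replicate number as a block the counts were 1 for trans fat and HFCS, 2 for MSG, 0 for the interaction, and 2, 1 and 0 for the MSG, trans-fat/HFCS and combined diets against control. The numbers do not pair the arrays, as same-numbered arrays had correlations of -0.056 to 0.043 in their deviations.

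Values that turned sign were those of SLC25A20 with trans fat and HFCS (-0.40 with the median probe set, -0.0045 with arrays centred, -0.020 to 0.086 over single arrays left out, below 0 without control array 2 or MSG array 1, -0.21 without both trans-fat/HFCS arrays), SLC25A21 without both trans-fat/HFCS arrays (0.76), SLC25A31 with MSG (-0.49 with the 75th percentile filter and with the brightest probe set) and SLC25A28 on the combined diet with no filter (-0.049). Except where fewer arrays or other probe sets entered by construction, the cause was not tested.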
